A study of Saccharomyces cerevisiae with 18 samples.

Results

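Budding yeast cells labelled wild type (WT) were exposed to 0.4 M NaCl for 15 min in 2 separate experiments of the series, and the change of each gene's RNA with salt was compared between them. The 12 WT libraries of the series, of 18 in all, were used: 3 basal and 3 salt libraries in experiment 1, and 3 basal and 3 salt libraries in experiment 2. The other 6 libraries, from a strain with a KAN cassette in place of HOG1, entered only 1 alternative fit, that of all 18 libraries. All WT cells are labelled BY4741, a MATa laboratory strain with deletions in auxotrophic marker genes, and grew in rich YPD medium to an optical density of 0.6 at exponential phase before harvest, per the labels' protocols. Experiment 1 used a stranded TruSeq mRNA kit on 1 µg of RNA. Experiment 2 used polyA selection beads and the Lexogen CORALL kit on 5 µg of RNA. Reads of both were single-end and 50 bp long. The basal libraries are labelled untreated, and each group is described as 3 biological replicates of 1 strain.

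Hyperosmotic salt draws water out of yeast cells and activates the kinase Hog1 of the high osmolarity glycerol (HOG) pathway, which raises glycerol production and osmostress genes. The same shock sets off the environmental stress response, in which general stress genes driven by Msn2 and Msn4 rise and genes for ribosomes and their assembly fall for a time. Both arms peak early and then relax as the cell regains volume.

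Markers of the strain differed between the experiments. LEU2, MET17 and URA3, which BY4741 lacks, had means of 178, 472 and 25.8 CPM (counts scaled to a common library total) in the basal libraries of experiment 1, against at most 2 counts in any WT library of experiment 2. HIS3, partly deleted in BY4741, had means of 906 and 70.3 CPM in the basal libraries of experiments 1 and 2. The marker transcripts of experiment 1 thus go against its BY4741 label, and kit, marker transcripts and experiment cannot be told apart. MATa genes summed to 1007 to 1868 CPM over the libraries of experiment 1 and 2118 to 4918 CPM in experiment 2, while the MATalpha pheromone gene MF(ALPHA)1 stayed under 1 CPM in all 12 libraries. The 4 MATalpha genes summed to 55.7 to 102 CPM, most of it SAG1, and 6 sporulation genes to 26.2 to 142 CPM. Totals ran from 11135883 to 16527859 counts per library. Within experiment 2, basal replicate 1 and salt replicate 2 stood apart from their groups. What set each apart from its own group was shared between them (r = 0.81 across genes), and the common biological coefficient of variation of experiment 2 was 21.8% with them and 10.6% without them, against 10.8% in experiment 1. Counts over all genes and for several lists are therefore given with and without these libraries. Because kits differ, levels were not tested between the experiments. Only changes with salt were. In bulk samples, fewer cells of a type and less RNA per cell cannot be told apart.

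The salt responses of the 2 experiments were alike in size across the genome and differed for a limited set of genes. Of 5754 genes tested, 1686 rose with salt (29.3%) and 1590 fell (27.6%) in experiment 1, and 1636 rose (28.4%) and 1718 fell (29.9%) in experiment 2, by edgeR's quasi-likelihood test at an adjusted p under 0.05. Both experiments called 1356 genes as rising and 1335 as falling, and 10 genes in opposite directions. Across genes, which are not independent replicates, the log2 changes had a Pearson r of 0.935 and a Spearman rho of 0.900. Their standard deviations were 1.39 and 1.36, so that experiment 2 had 0.974 times the spread of experiment 1. For 75.3% of genes the changes lay within 0.5 of each other on the log2 scale, and for 95.5% within 1.

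The difference of responses, the log2 change with salt in experiment 2 minus that in experiment 1, was called higher for 96 genes (1.67% of those tested) and lower for 66 (1.15%). At an unadjusted p under 0.05 there were 973 genes. The median difference over all genes was 0.00 and its median approximate standard error 0.27. The smallest called difference had a size of 0.71, and 121 of the 162 calls were of at least 1 on the log2 scale. Without the deviating pair of libraries in experiment 2, 392 genes were called higher (6.81%) and 450 lower (7.82%), and all 162 of the first calls were among them with the same direction. Leaving out 1 library at a time gave 50 to 182 higher and 14 to 167 lower calls. In experiment 1 the higher count was 50, 51 and 80 without basal replicates 1, 2 and 3 and 60, 56 and 62 without salt replicates 1, 2 and 3, and the lower count 14, 26, 31, 27, 41 and 30 in the same order. In experiment 2 the higher count was 182, 64 and 52 without basal replicates 1, 2 and 3 and 115, 141 and 95 without salt replicates 1, 2 and 3, and the lower count 167, 24, 34, 73, 114 and 63. In all 12 of these fits, 61 calls held, 47 of them higher and 14 lower. Scaling by total counts alone gave 102 higher and 26 lower calls.

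**Figure D1:**
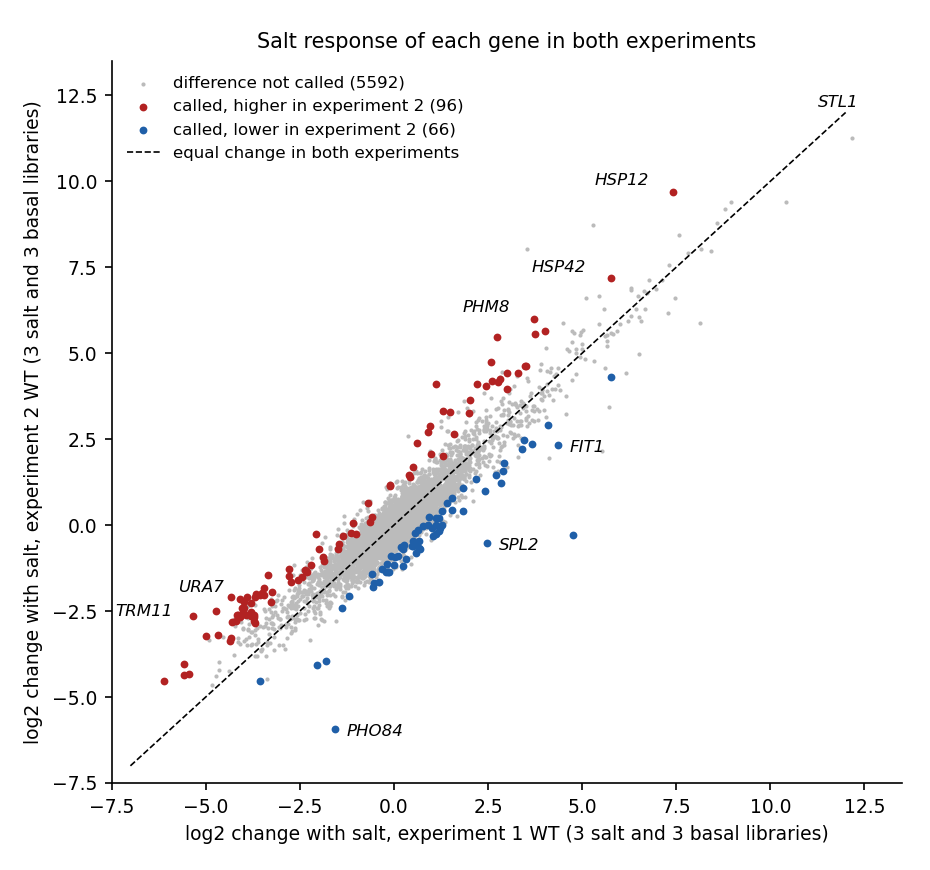
Each point is 1 of 5754 genes, with its log2 change with salt in experiment 1 on the x axis and in experiment 2 on the y axis. Red marks the 96 genes called higher and blue the 66 called lower, and most other genes lie along the dashed line of equal change.

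The called differences were sorted by the direction of change in each experiment. Of the 96 genes called higher, 55 fell in both experiments but less in experiment 2, and 31 rose in both and more in experiment 2. Of the 66 called lower, 18 rose in both and less in experiment 2, 10 fell in both and more in experiment 2, and 14 fell in experiment 2 alone. Another 17 rose and 7 fell in experiment 1 alone, and 2 rose in experiment 2 alone. Opposite calls with a called difference numbered 8, of which 7 rose in experiment 1 and fell in experiment 2. Without the deviating pair, 842 differences were called and the makeup changed. They held 201 smaller falls and 96 larger rises in experiment 2, 98 smaller rises and 90 larger falls. Another 117 rose and 56 fell in experiment 1 alone, 34 rose and 107 fell in experiment 2 alone, and 43 went in opposite directions. Genes that fell most with salt had the largest median difference. It was 0.66 for the 104 genes whose mean change over the experiments was under -3, with 32 called higher and 3 lower, and 0.31 for the 166 genes between -3 and -2. Between -1 and 2 the median stayed between -0.04 and -0.02, and for the 87 genes at 4 or more it was 0.11, with 8 called higher and 1 lower. Without the deviating pair the first of these medians was 0.64.

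Sequences upstream of the genes that differed are shown first, because the 2 large groups of genes called higher carry different upstream words. Genes of ribosome assembly are known for the PAC and RRPE elements, general stress genes for the stress response element STRE bound by Msn2 and Msn4, chaperone genes for heat shock elements bound by Hsf1, and phosphate genes for the E-box bound by Pho4. The 500 bases before each start codon in the RefSeq R64 assembly were searched on both strands for the PAC core GATGAG, the RRPE core AAAATTT, the STRE AGGGG and the Pho4 site CACGTG. The heat shock element was searched as GAA and its reverse complement TTC alternating 3 times with gaps of 2 bases. By their letters a PAC and an RRPE match cannot overlap, while AAAATTTT holds the RRPE core on both strands, and the other motifs can share an end base with a neighbour. Windows of 80 bases follow, 5′ to 3′ on the strand of the gene, with matches in capitals. The 100 bases next to the start codon were left out when windows were chosen. First are 4 genes of ribosome production or nucleotide synthesis that fell less in experiment 2: URA7 at chrII:145864-145943 (- strand), DRS1 at chrXII:131549-131628 (+ strand), YTM1 at chrXV:832623-832702 (+ strand) and NAN1 at chrXVI:310030-310109 (+ strand), with PAC and RRPE cores in capitals. They were chosen because both cores lie in 1 such window, which is not so for every such gene. ENP2, described below, had 7 PAC or RRPE matches in the 500 bases but 1 PAC core in its 80-base window. TRM11 had no PAC or RRPE core in the 500 bases.
URA7: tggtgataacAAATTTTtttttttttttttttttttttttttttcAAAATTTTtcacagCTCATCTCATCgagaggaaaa
DRS1: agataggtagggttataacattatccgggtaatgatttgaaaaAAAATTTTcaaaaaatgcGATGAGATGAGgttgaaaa
YTM1: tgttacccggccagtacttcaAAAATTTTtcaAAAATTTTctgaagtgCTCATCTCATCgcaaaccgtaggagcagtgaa
NAN1: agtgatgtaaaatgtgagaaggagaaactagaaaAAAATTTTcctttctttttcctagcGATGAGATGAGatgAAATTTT

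Next are 3 stress genes that rose more in experiment 2. HSP42 at chrIV:806347-806426 (+ strand) and HSP78 at chrIV:974442-974521 (- strand) show heat shock elements in capitals, and HSP12 at chrVI:106812-106891 (+ strand) shows STREs. SSA4 and HSP82, described below, had no heat shock element by these letters in the 500 bases.
HSP42: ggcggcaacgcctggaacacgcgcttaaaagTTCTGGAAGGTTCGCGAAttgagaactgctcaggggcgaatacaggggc
HSP78: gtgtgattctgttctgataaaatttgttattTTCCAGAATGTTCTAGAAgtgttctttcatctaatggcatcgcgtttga
HSP12: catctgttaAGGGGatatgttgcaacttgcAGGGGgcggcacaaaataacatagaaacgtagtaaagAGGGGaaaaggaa

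The last set holds phosphate genes called lower, PHO84 at chrXIII:26183-26262 (- strand), SPL2 at chrVIII:375419-375498 (- strand) and VTC3 at chrXVI:517304-517383 (- strand), with Pho4 sites in capitals. PHM8, the phosphate gene called higher, had no Pho4 site in the 500 bases.
PHO84: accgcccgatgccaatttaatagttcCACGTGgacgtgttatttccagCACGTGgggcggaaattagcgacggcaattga
SPL2: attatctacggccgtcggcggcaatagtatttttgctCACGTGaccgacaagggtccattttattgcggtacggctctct
VTC3: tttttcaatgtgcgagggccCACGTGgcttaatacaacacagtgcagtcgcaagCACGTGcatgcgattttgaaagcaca

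Both PAC and RRPE cores were present upstream of 43 of 54 genes that fell less in experiment 2 (79.6%), of 29.0% of the 1252 genes that fell in both with no called difference, and of 12.5% of all 5537 genes with such a window. Most strongly falling genes held both cores whether or not the difference was called. Among genes with a mean log2 change under -3, both were upstream of 87.5% of the 32 called higher and of 72.5% of the 69 with no called difference. Assembly genes with no called difference also held both cores in most cases. Within the assembly lists, both cores were upstream of 93.5% of the 31 genes called higher and of 84.9% of the 86 not called. Among 23 genes that fell less and are not in those lists, 60.9% held both. Of the 31 genes that rose more in experiment 2, 71.0% held an STRE, against 53.9% of genes that rose in both with no called difference and 34.5% of all. A heat shock element was found for 4 of these 31 genes (12.9%), against 2.15% of the genes that rose with no called difference and 1.54% of all. The Pho4 site was upstream of 6 of 65 genes called lower (9.23%) and of 6.29% of all. A match is a description of letters, not a bound site.

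**Figure D2:**
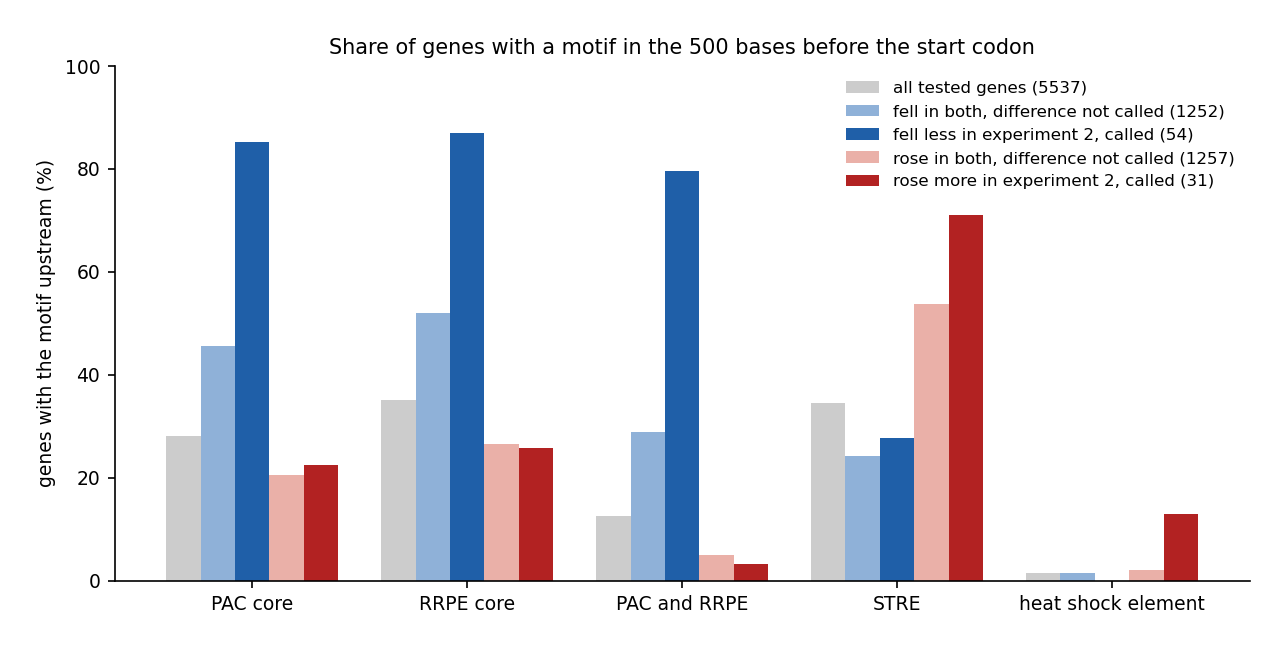
Bars give the percentage of genes with each motif in the 500 bases before the start codon, for all tested genes and for 4 classes defined by the calls. Genes that fell less in experiment 2 held both PAC and RRPE cores in 79.6% of cases, against 29.0% of genes that fell in both with no called difference. Among genes with a mean log2 change under -3, which are not drawn, the shares were 87.5% of those called higher and 72.5% of those not called.

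Ribosome assembly genes fell strongly in both experiments, and 31 of them fell less in experiment 2. Of 117 tested assembly factors, 116 fell in each experiment, with median log2 changes of -3.34 and -2.53. The difference was called higher for 31 and lower for 0 (57 and 2 at an unadjusted p under 0.05, and 48 and 1 by DESeq2), beside 1.67% and 1.15% of all genes, and lay above 0 for 98. Its median was 0.57, against 0.00 over all genes. Among all 104 tested genes with a mean log2 change under -3, 32 were called higher and 3 lower, with a median of 0.66. Among 61 factors of the large subunit 18 were called higher (median 0.72), and among 56 of the small subunit processome and 40S assembly 13 (median 0.50). Leaving out 1 library gave 10 to 25 and 9 to 15 such calls, the lowest without basal replicate 1 of experiment 1 and the highest without basal replicate 1 of experiment 2, in both lists. Ties for the lowest were salt replicate 2 of experiment 1 in both, basal replicate 3 of experiment 2 in the first and basal replicate 2 of experiment 1 in the second. Salt replicate 1 of experiment 2 tied for the highest in the second. Without the deviating pair, 50 of the 117 were called higher and 1 lower, with a median of 0.50. The deviating basal and salt libraries lay 0.16 and 0.27 above their group means at the median of this list, and their part in the result was not tested.

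DRS1 encodes a DEAD-box helicase of large subunit assembly. It went from 166, 166 and 136 CPM to 6.78, 8.96 and 11.4 CPM in experiment 1, and from 108, 116 and 99.4 to 24.8, 26.2 and 24.0 CPM in experiment 2. CPM of single genes are scaled by TMM factors within each experiment. Every salt library lay below every basal library in both experiments. The log2 changes were -4.09 ± 0.19 and -2.14 ± 0.17 (approximate standard error), a difference of 1.95 ± 0.24 (edgeR adjusted p = 0.000742). YTM1, whose product works with Erb1 on the large subunit, fell from 192, 192 and 190.4 to 11.4, 11.7 and 12.5 CPM and from 199, 162 and 166 to 31.9, 37.7 and 31.2 CPM, a difference of 1.59 ± 0.19. Genes of the small subunit processome also fell less. ENP2 fell from 116, 115 and 87.2 to 3.90, 7.17 and 4.88 CPM in experiment 1 and from 141, 117 and 164 to 24.0, 35.8 and 40.8 CPM in experiment 2, a difference of 2.22 ± 0.33. NAN1 differed by 1.61 ± 0.21 and MRD1 by 1.78 ± 0.27. NOP58, a core protein of box C/D snoRNPs, fell from 351, 371 and 287 to 25.4, 29.1 and 37.0 CPM and from 513, 505 and 521 to 146, 168 and 128 CPM, a difference of 1.63 ± 0.25. These 6 calls held in all 12 fits that left out 1 library, with edgeR adjusted p-values of 0.000614 for YTM1, 0.00281 for ENP2, 0.00103 for NAN1, 0.00311 for MRD1 and 0.00294 for NOP58.

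Other assembly genes had no called difference. NOG1, a GTPase of large subunit assembly, fell from 495, 509 and 530.5 to 20.9, 16.7 and 16.2 CPM and from 676, 470.4 and 535 to 25, 24.2 and 19.4 CPM. Its log2 changes were -4.83 and -4.64, and the difference of 0.19 ± 0.24 did not pass the test (adjusted p = 0.749). For NSR1, nucleolin in yeast, the difference was 0.43 ± 0.23 (adjusted p = 0.366).

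RNA polymerase I, which makes the large rRNA precursor, gave the highest median of the ribosome lists. Of 10 genes for its subunits and the factor Rrn3, 4 were called higher and 0 lower (median difference 0.91). Over all genes, 1.67% were called higher and 1.15% lower. RPA135, the second-largest subunit, fell from 836, 876 and 929.7 to 64.2, 53.6 and 56.8 CPM in experiment 1. In experiment 2 it fell from 707, 1055 and 1140 to 267, 141 and 287 CPM, with the lowest basal and the lowest salt value in the deviating libraries. Its difference was 1.81 ± 0.34 (edgeR adjusted p = 0.00905). RPA190, the largest subunit, differed by 1.06 ± 0.20 (adjusted p = 0.00806), and both calls held in all 12 fits that left out 1 library. RPA43 and RPC40 had called differences of 1.54 ± 0.35 and 0.94 ± 0.21 that held in 6 and 4 of the 12 fits. Their highest adjusted p-values were 0.0786 without basal replicate 2 of experiment 1 and 0.0772 without that same library. RPA14, RPA12 and RPC19 had differences of -0.60, -0.46 and -0.24 that did not pass the test. Leaving out 1 library gave 2 to 6 calls in this list. It was 2 without basal replicate 1 or 2 or salt replicate 1 or 2 of experiment 1, or basal replicate 2 or 3 of experiment 2, and 6 without basal replicate 1 of experiment 2. RPA190 and RPA43 lie next to each other on chromosome XV, divergently, with 804 bp between their coding regions.

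Cytosolic ribosomal protein genes showed a smaller shift that no single gene carried past the test. Of 137 genes, 129 fell and 1 rose in experiment 1, and 113 fell in experiment 2, with median log2 changes of -1.12 and -0.68. The difference lay above 0 for 123 of them, with a median of 0.44 and a range from -0.50 to 1.11, and 0 were called by edgeR in either direction. At an unadjusted p under 0.05 there were 43 higher and 1 lower. DESeq2 called 17 higher and 0 lower, limma voom with sample quality weights 78 and 1, and edgeR without the deviating pair 48 and 1. RPL3, a large subunit protein with 1 gene, differed by 0.14 ± 0.27 (adjusted p = 0.845). Many of the other genes have near-identical copies, so that their counts can be split between copies. Of 15 regulators of ribosome gene transcription 1 was called higher, beside 1.67% of all genes. It was CRF1, a repressor of ribosome genes, at 1.59 ± 0.39 (edgeR adjusted p = 0.0401). Its call held in 2 of the 12 fits that left out 1 library, with adjusted p up to 0.13, and was lost without any library other than salt replicates 1 and 2 of experiment 2.

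**Figure D3:**
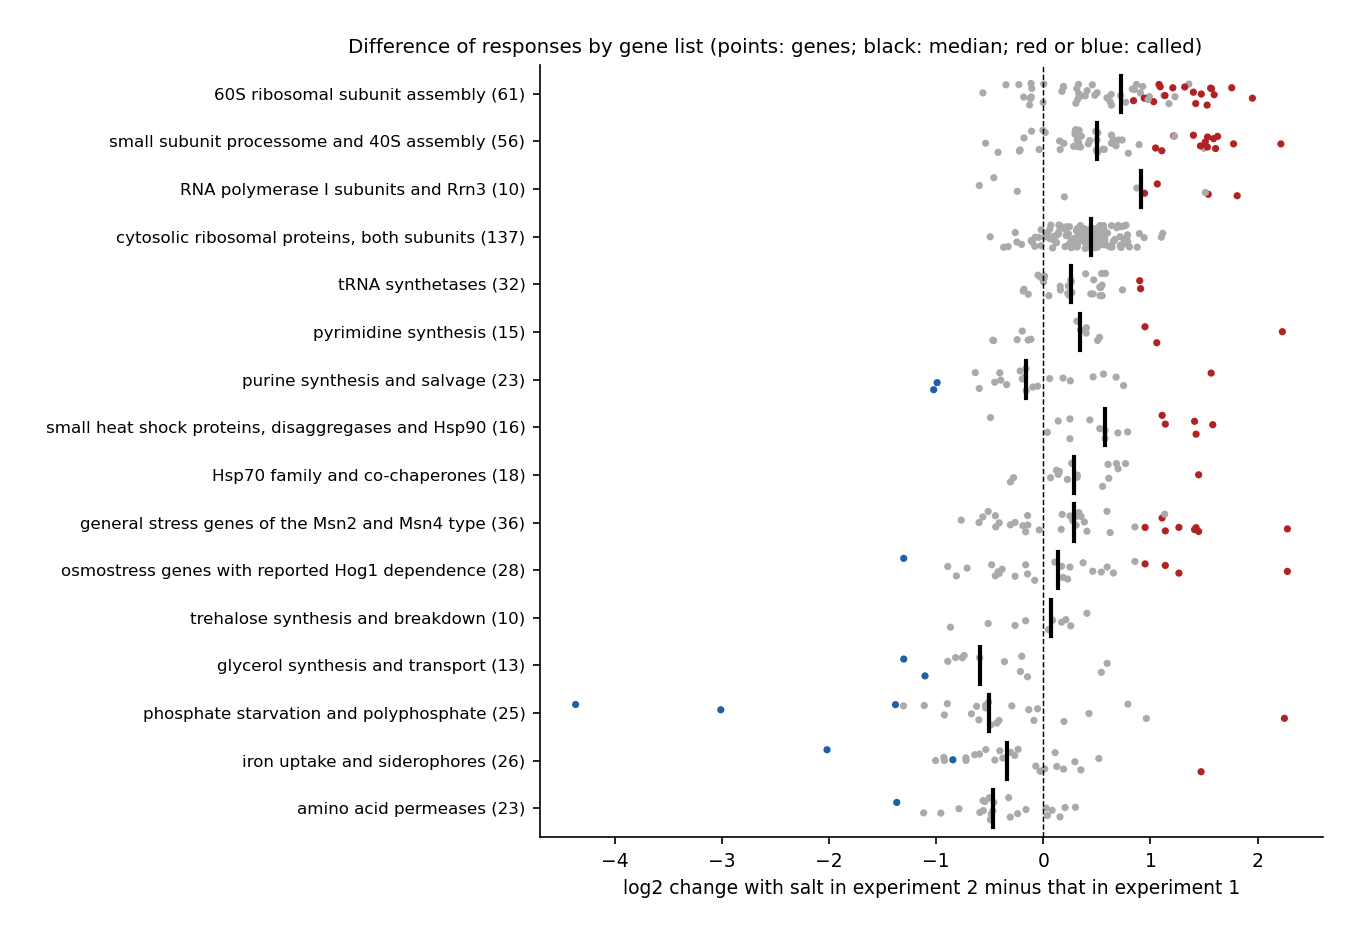
Points are genes of 16 lists, at the difference of their log2 changes with salt (experiment 2 minus experiment 1), black bars are list medians, and red and blue mark genes called higher and lower. Ribosome assembly and RNA polymerase I lists lie to the right of 0 (medians 0.50 to 0.91), and the glycerol and phosphate lists to the left (medians -0.59 and -0.51, and -0.25 for glycerol without basal replicate 2 of experiment 2).

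Genes for nucleotide synthesis and tRNA charging or modification were also among the smaller falls. The list counts in this paragraph stand beside 1.67% called higher and 1.15% called lower over all genes. URA7, the CTP synthase, had the lowest adjusted p of all named genes. Its values were 510.4, 496 and 518 CPM basal and 18.2, 20.1 and 19.3 CPM in salt in experiment 1, and 478, 457 and 429 CPM basal and 86.3, 72.7 and 89.7 CPM in salt in experiment 2. Every salt value lay below every basal value in both experiments. The log2 changes were -4.72 ± 0.16 and -2.49 ± 0.14, a difference of 2.23 ± 0.19 (edgeR adjusted p = 4.69e-05). TRM11, a tRNA methyltransferase subunit, gave the largest called rise in difference of the genes named by rule. It fell from 106, 113 and 97.4 to 2.63, 1.88 and 3.15 CPM and from 144, 115 and 111 to 18.6, 25.04 and 16.7 CPM, a difference of 2.71 ± 0.28 (adjusted p = 0.000351). Of 15 pyrimidine genes 3 were called higher and 0 lower (median 0.35, and 0.19 without salt replicate 1 of experiment 2): URA7, the dihydroorotate dehydrogenase URA1 at 1.06 ± 0.20 and the uridine kinase URK1 at 0.95 ± 0.19. Purine genes split. Of 23, 1 was called higher, AAH1, an adenine deaminase, at 1.57 ± 0.28, and 2 lower, ADE4, the first enzyme of purine synthesis, at -1.02 ± 0.18 and HPT1, a purine salvage enzyme, at -0.99 ± 0.20. AAH1 fell from 277, 291 and 302 to 15.6, 15.6 and 16.6 CPM and from 525, 582 and 492 to 128, 67.7 and 73.0 CPM. ADE4 fell from 168, 155 and 166 to 66.3, 58.2 and 63.5 CPM and from 251, 269 and 262 to 55.3, 44.6 and 51.7 CPM, more strongly in experiment 2. RKI1, the ribose 5-phosphate isomerase that leads to nucleotide precursors, differed by 1.54 ± 0.21. Of 32 tRNA synthetase genes 2 were called higher, CDC60 and THS1, and 0 lower (median 0.26), and 0 were called higher without basal replicate 1 or 2 or salt replicate 1 or 3 of experiment 1 or basal replicate 3 of experiment 2. The calls of URA7, URA1, TRM11, AAH1, ADE4 and RKI1 held in all 12 fits that left out 1 library. That of HPT1 was lost without basal replicate 1 or 2 or salt replicate 1 or 2 of experiment 1 (adjusted p = 0.0779, 0.0608, 0.0674 and 0.0521), and that of URK1 without basal replicate 2 or salt replicate 2 or 3 of experiment 1 (0.0516, 0.052 and 0.0546).

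Several chaperone genes rose more in experiment 2. The list of small heat shock proteins, disaggregases and Hsp90 had 5 of 16 genes called higher and 0 lower, beside 1.67% and 1.15% of all genes. Its median log2 changes were 0.73 and 1.37, and its median difference was 0.58. HSP82, the stress-inducible Hsp90, went from 204, 212 and 181 to 1053, 1080 and 1129 CPM in experiment 1 and from 28.5, 34.5 and 23.0 to 391, 569.7 and 473 CPM in experiment 2. Basal and salt values did not overlap within either experiment. The log2 changes were 2.45 ± 0.19 and 4.04 ± 0.21, a difference of 1.58 ± 0.26 (edgeR adjusted p = 0.00485). SSA4, the stress-inducible Hsp70, went from 101, 98.9 and 86.4 to 586, 741 and 667 CPM and from 13.8, 13.9 and 16.4 to 259, 338 and 261 CPM, a difference of 1.45 ± 0.24 (adjusted p = 0.00466). It was the 1 member called among 18 Hsp70 genes and co-chaperones, whose median difference was 0.29, and 0.44 without basal replicate 2 of experiment 2. HSP82 and SSA4 held in all 12 fits that left out 1 library.

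Other chaperones had called differences that were lost in some of the fits that left out 1 library. HSP78, a mitochondrial disaggregase, differed by 1.43 ± 0.31, HSP42 and HSP26, small heat shock proteins, by 1.41 ± 0.33 and 1.14 ± 0.23, and HSP104, the cytosolic disaggregase, by 1.11 ± 0.26. HSP42 rose from 16.9, 19.1 and 17.7 to 863, 958 and 1085 CPM and from 5.43, 4.64 and 3.12 to 488, 839.7 and 606 CPM, with the highest salt value of experiment 2 in the deviating library. The call of HSP26 was lost without salt replicate 3 of experiment 1 (adjusted p = 0.0546) or basal replicate 3 of experiment 2 (0.0551). That of HSP42 held in 4 of the 12 fits, and was lost without any library of experiment 1 or basal replicate 2 or 3 of experiment 2 (highest adjusted p 0.1). That of HSP78 held in 7, and was lost without basal replicate 1 or 2 or salt replicate 1 or 3 of experiment 1 or basal replicate 3 of experiment 2 (highest 0.0676). That of HSP104 held in 4 (highest 0.103). The list count was 1 without salt replicate 3 of experiment 1 or without basal replicate 3 of experiment 2, and 6 without salt replicate 1 of experiment 2. Without the deviating pair, 7 of the 16 were called. HSC82, the constitutive Hsp90, had changes of 0.33 and 0.76, and HSP31, a methylglyoxalase, was the list's lowest at -0.49. Neither difference passed the test. At the median of this list the deviating basal and salt libraries lay 0.20 and 0.34 above their group means, and their part was not tested.

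**Figure D4:**
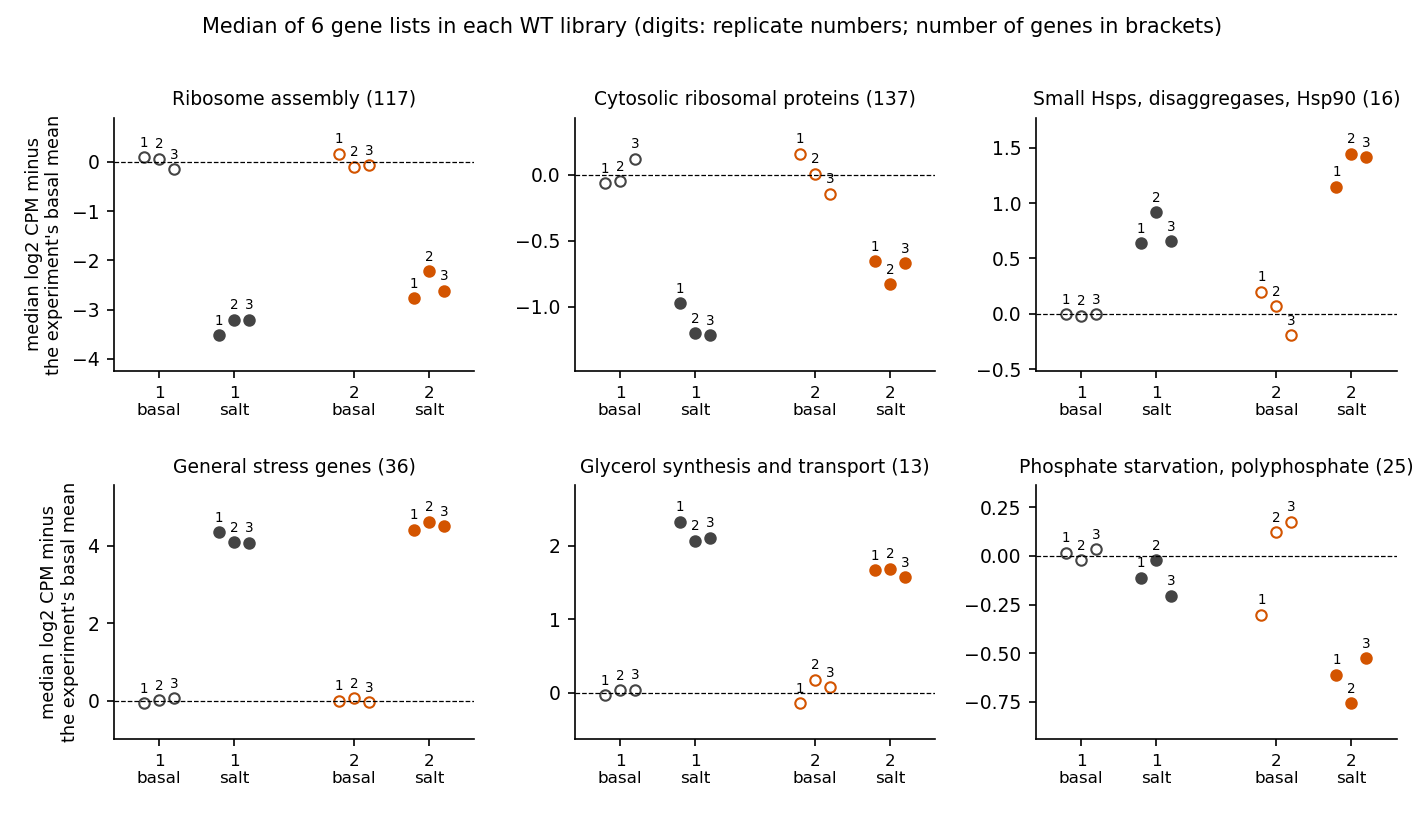
Each point is 1 of the 12 WT libraries, at the median over a gene list of the log2 CPM minus the mean of the basal libraries of the same experiment (y axis), with digits for replicate numbers. The salt libraries of ribosome assembly reach -3.52 to -3.21 in experiment 1 and -2.78 to -2.22 in experiment 2.

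All 36 genes of the general stress list, typical targets of Msn2 and Msn4, rose in both experiments, with median log2 changes of 4.18 and 4.54. Their median difference was 0.29, and 8 were called higher and 0 lower, beside 1.67% and 1.15% of all genes. Of those 8, 6 encode chaperones or the membrane protein Hsp12. HSP12 stabilises membranes under stress. It rose from 25.9, 25.4 and 27.5 to 4708, 4322 and 4431 CPM in experiment 1 and from 1.32, 2.16 and 1.15 to 1103, 1538 and 1179 CPM in experiment 2. The log2 changes were 7.42 ± 0.25 and 9.70 ± 0.29, a difference of 2.28 ± 0.31 (edgeR adjusted p = 0.00143). The other 2 were HOR7 at 0.95 ± 0.22 (adjusted p = 0.0265) and YGP1, a secreted glycoprotein, at 1.27 ± 0.32 (0.049), held in 4 and 2 of the 12 fits that left out 1 library (highest adjusted p 0.0906 and 0.143). Members with no called difference included the catalase CTT1 (-0.15 ± 0.22, adjusted p = 0.802) and the trehalose phosphatase TPS2 (-0.16 ± 0.21, 0.746). CTT1 rose from 24.1, 24.5 and 26.8 to 7993, 6762 and 6843 CPM and from 11.9, 10.9 and 9.90 to 2867, 2915 and 2892 CPM. Of 10 trehalose genes and 12 glycogen genes, 0 were called in either direction. At an unadjusted p under 0.05 there were 0 higher and 2 lower trehalose genes and 1 higher and 1 lower glycogen gene, and DESeq2 called 0 in both lists. With sample quality weights 1 trehalose gene was called lower, and 3 glycogen genes higher and 1 lower. Leaving out 1 library gave 2 to 10 calls in the general stress list, 2 without salt replicate 3 of experiment 1 or basal replicate 3 of experiment 2. HSP12 held in all 12 fits. The fit without the deviating pair called 12 of the 36 genes higher and 2 lower.

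Other genes with larger rises in experiment 2 came from several functions. PHM8, a phosphatase of lysophosphatidic acid and nucleotides, rose from 5.20, 5.38 and 4.19 to 61.5, 72.9 and 61.7 CPM and from 1.12, 1.44 and 1.08 to 50.7, 94.3 and 87.6 CPM, a difference of 2.25 ± 0.37 (edgeR adjusted p = 0.00466). RTS3 rose from 16.1, 18.8 and 16.4 to 67.3, 82.2 and 87.3 CPM in experiment 1 and from 19.1, 17.7 and 13.4 to 309.8, 318 and 250.4 CPM in experiment 2. Its difference was 1.89 ± 0.24 (adjusted p = 0.000856). NCW2, a cell wall protein, rose from 66.2, 72.6 and 77.2 to 109.7, 104 and 118 CPM in experiment 1 and from 61.7, 60.7 and 55.5 to 343, 343 and 268 CPM in experiment 2. Its log2 changes were 0.62 and 2.39, a difference of 1.77 ± 0.20 (adjusted p = 0.000384). YRO2, a membrane protein related to heat shock, differed by 1.92 ± 0.30, MNC1 by 2.00 ± 0.38, DIA1 by 1.80 ± 0.31 and GID10, a stress-induced receptor of the GID ubiquitin ligase, by 1.80 ± 0.35. All 7 calls held in all 12 fits that left out 1 library.

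Most glycerol genes rose in both experiments, and 2 of them had a smaller rise in experiment 2 that passed the test. Of 13 tested, 10 rose in experiment 1 and 9 in experiment 2. The difference was called lower for 2 and higher for 0, beside 1.15% and 1.67% of all genes. It lay above 0 for 2, with a median of -0.59. That median was -0.25 without basal replicate 2 of experiment 2. The fit without the deviating pair called 6 of the 13 lower and 0 higher. GPD1, the glycerol 3-phosphate dehydrogenase that commits carbon to glycerol, and GPP2, the glycerol phosphatase, were the 2 above 0, at 0.60 ± 0.32 and 0.54 ± 0.21, neither past the test (adjusted p = 0.368 and 0.206). GPP2 rose from 69.3, 69.3 and 74.0 to 5692, 5352 and 5655 CPM and from 21.5, 22.2 and 23.6 to 2544, 2832 and 2516 CPM. STL1, the glycerol importer, had the largest change of the named genes in both experiments. It rose from 1.89, 0.883 and 1.32 to 7121, 6071 and 5809 CPM, and from 0.993, 4.22 and 1.02 to 5829, 3341 and 5514 CPM. Basal replicate 2 of experiment 2 was the highest basal value, and salt replicate 2 the lowest salt value. Its log2 changes were 12.16 ± 0.56 and 11.27 ± 0.54, and the difference of -0.89 ± 0.62 did not pass the test (adjusted p = 0.512). It was 0.10 without basal replicate 2 of experiment 2.

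The 2 glycerol genes called lower act after or beside glycerol synthesis. DAK1, a dihydroxyacetone kinase, rose from 181, 193 and 202 to 2833, 2223 and 2233 CPM and from 119.9, 167 and 141 to 888, 609 and 757 CPM, with log2 changes of 3.66 and 2.36 and a difference of -1.30 ± 0.26 (edgeR adjusted p = 0.0128). GUT2, the mitochondrial glycerol 3-phosphate dehydrogenase, rose from 28.5, 25.9 and 27.6 to 188, 194 and 238 CPM and from 28.1, 33.6 and 23.0 to 91.9, 105 and 106 CPM, a difference of -1.11 ± 0.22 (0.0133). Every salt value of GUT2 lay above every basal value in both experiments. Without basal replicate 1 of experiment 1 neither gene was called (0.0679 and 0.0631), nor without basal replicate 2 of experiment 2 (0.0519 and 0.0556). DAK1 was also lost without salt replicate 1 of experiment 1 (0.0558) and GUT2 without basal replicate 2 of experiment 1 (0.0571). GLO1, which removes methylglyoxal, differed by -1.19 ± 0.24 (0.0133) and was lost without basal replicate 1 or 2 or salt replicate 1 of experiment 1 (0.0699, 0.0583 and 0.0578). The wider list of osmostress genes with reported Hog1 dependence had a median difference of 0.14, with 4 of 28 called higher, among them HSP12, and 1 lower, DAK1. Its median was -0.06 without salt replicate 3 of experiment 2. Over all genes, 1.67% were called higher and 1.15% lower. HOG1 itself had changes of 0.46 and 0.32, a difference of -0.14 ± 0.23 (adjusted p = 0.826). The sodium pump gene ENA1 (0.65 ± 0.34, 0.348), the oxidoreductase gene GRE2 (-0.42 ± 0.21, 0.341) and the hexose transporter gene HXT1 (-0.71 ± 0.39, 0.384) had no called difference.

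**Figure D5:**
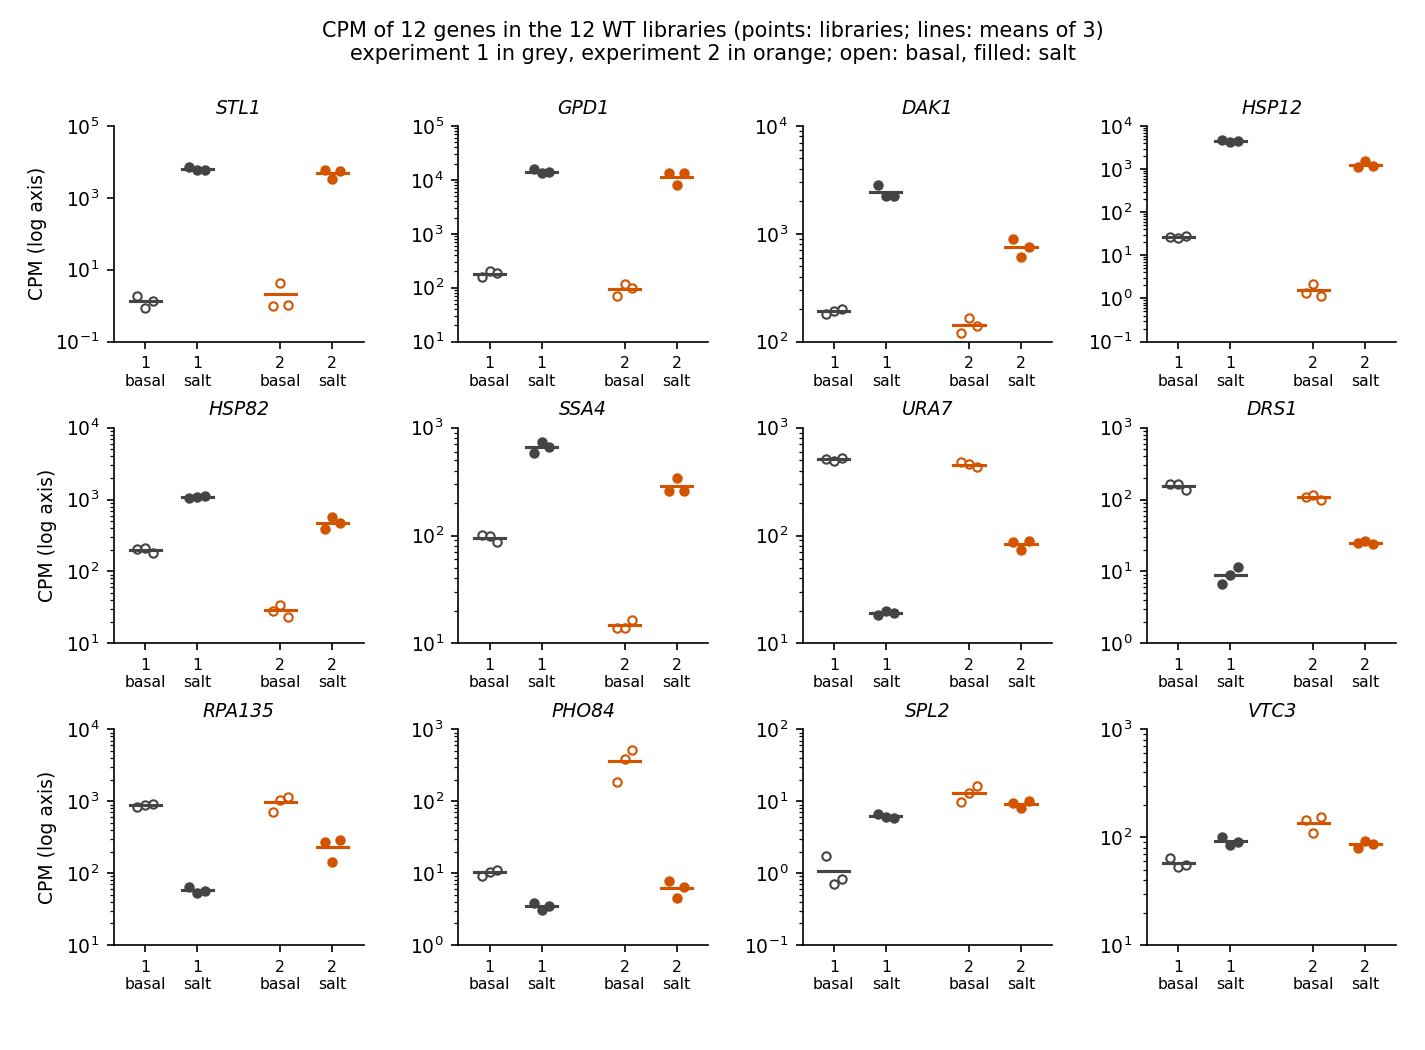
Points are CPM (log axis) of 12 genes in each WT library, open for basal and filled for salt, grey for experiment 1 and orange for experiment 2, with lines at means of 3. URA7 and DRS1 fall less in experiment 2, and PHO84 falls from 186 to 512 CPM basal to 4.47 to 7.72 CPM in salt there.

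Phosphate genes gave the largest lower differences among the genes named by rule. Of 25 genes of phosphate starvation and polyphosphate synthesis 3 were called lower and 1 higher (PHM8, above), beside 1.15% and 1.67% of all genes. The median difference of the list was -0.51. Median log2 changes per salt library were -0.11, -0.02 and -0.21 in experiment 1 and -0.61, -0.76 and -0.53 in experiment 2. PHO84, the high-affinity phosphate transporter, went from 9.15, 10.4 and 11.2 to 3.82, 3.07 and 3.45 CPM in experiment 1, and from 186, 394 and 512 to 7.72, 4.47 and 6.46 CPM in experiment 2. Every salt value lay below every basal value in both experiments, and the lowest basal value of experiment 2 was in the deviating library. The log2 changes were -1.56 ± 0.34 and -5.93 ± 0.35, a difference of -4.37 ± 0.47 (edgeR adjusted p = 0.000351). SPL2, an inhibitor of low-affinity phosphate uptake, rose from 1.73, 0.706 and 0.822 to 6.61, 5.97 and 5.89 CPM in experiment 1 and stood at 9.93, 12.98 and 16.3 CPM basal and 9.48, 8.17 and 10.2 CPM in salt in experiment 2. Its difference was -3.01 ± 0.40 (adjusted p = 0.00131). VTC3, a subunit of the polyphosphate polymerase, rose from 63.8, 53.4 and 55.4 to 101, 84.5 and 90.6 CPM in experiment 1 and fell from 145, 109 and 155 to 78.8, 92.4 and 85.8 CPM in experiment 2. The changes were 0.68 ± 0.15 and -0.70 ± 0.15, both called, and the difference of -1.38 ± 0.21 was called (0.00315). Every salt value of VTC3 lay above every basal value in experiment 1 and below every basal value in experiment 2. PHO5, the secreted acid phosphatase, had changes of -0.04 and -0.71 and no called difference (-0.67). The deviating basal library lay at -0.30 for the median of this list, against 0.12 and 0.18 for the other basal libraries of experiment 2. Without the pair of deviating libraries the difference of PHO84 was -4.50 and that of SPL2 -3.12. That fit called 9 of the 25 genes lower and 3 higher. The calls of PHO84, SPL2 and VTC3 held in all 12 fits that left out 1 library.

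Iron genes were mixed. The counts of iron genes and permeases given here stand beside 1.15% called lower and 1.67% called higher over all genes. FIT1, a cell wall mannoprotein that holds siderophore iron, rose from 6.70, 8.47 and 7.89 to 168, 145 and 157 CPM and from 34.7, 38.7 and 26.2 to 215, 99.2 and 202 CPM, a difference of -2.02 ± 0.34 (edgeR adjusted p = 0.00504) that held in all 12 fits. FRE1, a cell surface reductase, fell from 595, 538 and 511 to 16.5, 22.0 and 25.9 CPM and from 337, 322 and 249.7 to 43.3, 22.5 and 36.6 CPM, a difference of 1.47 ± 0.31 (0.0197) that held in 7 of 12. It was lost without basal replicate 1 or 2 or salt replicate 1 or 2 of experiment 1 or basal replicate 3 of experiment 2, with adjusted p of 0.0618, 0.0524, 0.0558, 0.0528 and 0.0645. Of 26 iron uptake genes 2 were called lower (FIT1 and the iron-sulfur scaffold ISU2) and 1 higher (FRE1), with a median of -0.34. The difference of ISU2, -0.84 ± 0.21 (adjusted p = 0.0492), held in 1 of the 12 fits, that without salt replicate 2 of experiment 2 (highest 0.196, without basal replicate 1 of experiment 1). The list median was -0.16 without salt replicate 2 of experiment 2 and -0.53 without salt replicate 1. With both deviating libraries left out, 6 of the 26 iron genes were called lower and 2 higher. Amino acid permeases had a median of -0.47, which was -0.22 without basal replicate 2 of experiment 2, and 1 of 23 was called lower, MUP3, a methionine permease, at -1.37 ± 0.28. It was lost without basal replicate 1 or 2 or salt replicate 1 of experiment 1 or basal replicate 2 of experiment 2 (0.0706, 0.0516, 0.0599 and 0.0574). Called permeases were 7 lower and 0 higher without the deviating pair. The deviating basal and salt libraries lay at -0.51 and -0.57 for the median of the permeases, and their part was not tested.

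Other genes called lower had no shared list. PRM7 fell from 57.6, 64.2 and 63.2 to 19.6, 15.3 and 17.7 CPM and from 129.8, 159.5 and 222 to 15.8, 6.29 and 12.6 CPM, a difference of -2.13 ± 0.37 (edgeR adjusted p = 0.00583). Its neighbour BSC1, on the same strand of chromosome IV, differed by -2.02 ± 0.44 (0.0221), held in 5 of 12 fits and lies 519 bp away. TSA2, a thioredoxin peroxidase, rose from 14.3, 15.4 and 18.5 to 56.6, 60.6 and 54.6 CPM in experiment 1 and from 10.3, 8.76 and 9.90 to 14.6, 11.6 and 13.2 CPM in experiment 2, a difference of -1.43 ± 0.22 (0.00281). CBP4, a factor for assembly of the cytochrome bc1 complex, rose by 1.24 ± 0.17 on the log2 scale in experiment 1 and had a change of -0.09 ± 0.17 in experiment 2, a difference of -1.33 ± 0.24 (0.00794). PAN1, which links endocytosis to actin, rose from 129.5, 135 and 149.5 to 216, 179 and 221 CPM in experiment 1 and fell from 178, 213 and 231 to 119, 114 and 127 CPM in experiment 2. Its changes were 0.58 ± 0.14 and -0.82 ± 0.14, a difference of -1.40 ± 0.20 (0.00215). The calls of PRM7, TSA2, CBP4 and PAN1 held in all 12 fits that left out 1 library.

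Across the 67 lists, which cover 1396 tested genes, 75 of the 162 called genes were members. Over all tested genes 1.67% were called higher and 1.15% lower, so a short list often has 0 calls. By edgeR at an adjusted p under 0.05, 40 lists had 0 called members. Of the lists tied to the marker genes, those of leucine, isoleucine and valine and of histidine synthesis were among these, and those of sulfur assimilation and pyrimidine synthesis were not. Of 12 genes for leucine, isoleucine and valine synthesis and of 6 for histidine synthesis, 0 were called higher or lower by edgeR or DESeq2 (1 and 0 genes at an unadjusted p under 0.05, and 1 and 0 with sample quality weights), and of 28 for sulfur assimilation and methionine 1 was called, MUP3. ILV6 had the lowest difference of the first list (-0.69) and ILV2 the highest (0.50). Reference genes had no called difference. ACT1 differed by -0.07 ± 0.38 (adjusted p = 0.956) and TDH3 by -0.13 ± 0.39 (0.916). With total counts as the only scaling, the median difference of all genes was 0.22. On that scale the medians of the assembly, ribosomal protein, chaperone, general stress, glycerol, phosphate, iron and permease lists kept their sign, and 29 of the list medians changed it, those of purine synthesis and glycogen among them.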

How the data were processed

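RNA of 18 yeast libraries was sequenced as 50 bp single-end reads. The 12 WT libraries were used, and all 18 in 1 alternative fit. The authors deposited raw counts per gene in 2 tables, 1 per experiment. HISAT2 2.1.0, featureCounts 1.5.1 and build R64 are named in the submitters' processing notes, with settings not given in the sources used here. Both tables hold the same 7126 identifiers, of which 6048 were named from the RefSeq R64 reference. Totals were 11135883 to 16527859 counts per library. They do not set the counting error of genes with few counts. GID10, for example, had 11, 6 and 14 counts in the basal libraries of experiment 2.

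Genes passing filterByExpr in the 6 WT libraries of each experiment were tested (5754). A further 338 that passed over the 12 libraries together but not in both experiments were left out. edgeR 4.0.16 in R 4.3.3 fitted 4 group means to the 12 libraries by quasi-likelihood (robust, TMM factors). The response of each experiment and the difference of responses came from that fit, with Benjamini-Hochberg adjustment over all tested genes and a threshold of 0.05. Errors are approximate standard errors, taken as the size of a log2 change divided by the square root of its quasi-likelihood F. They rest on 1 spread per gene for all 12 libraries, not on the spread of each experiment. CPM of single genes use TMM factors within each experiment. Replicates are labelled biological triplicates of 1 strain. Genes were named by rule: the 15 largest called differences each way with a gene name and a mean log2 CPM of at least 3, the 6 largest with opposite directions, up to 4 called members of each list, and a panel of 16, or 84 genes in all. Others named to account for a count (HSP104, HOR7, HSC82, HSP31, RPA14, RPA12, RPC19, PHO5, ILV6 and ILV2) were chosen after their values were seen. FSH2, PRM9, IMP21, PWP1, NOP56, THI4, and YCL041C with the genes given beside it were also named outside the rule. The comparison, its groups and the gene lists were chosen with earlier results of these data known. Alternatives used DESeq2 1.42.0, limma 3.58.1, other scalings and filters, and left-out libraries. Leaving out both deviating libraries was added after seeing the data. On simulated counts of 5754 genes the test recovered 51 of 100 log2 differences of size 1 and 98 of 100 of size 2. It called 7 of 5554 unchanged genes. The simulated counts had 1 spread per gene shared by all 12 libraries and no deviating libraries. They therefore do not show the error rate under the unequal spread of these data. Figures were drawn with matplotlib 3.10.9 in Python 3.11.15.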

Additional observations from a re-analysis of the deposited data

Results flagged for a closer look

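For 8 genes the change with salt was called in opposite directions in the 2 experiments and the difference itself was called by edgeR's quasi-likelihood test. UGA3, an activator of GABA genes, fell from 33.1, 28.5 and 32.0 to 17.2, 20.8 and 19.4 CPM in experiment 1 and rose from 36.7, 27.2 and 24.96 to 47.3, 49.0 and 44.2 CPM in experiment 2. Its basal and salt values did not overlap within either experiment, and the difference of 1.33 ± 0.22 had an edgeR adjusted p of 0.00504. The other 7 rose in experiment 1 and fell in experiment 2. PAN1 and VTC3, with differences of -1.40 and -1.38, are described above, and with UGA3 they held in all 12 fits that left out 1 library. RGM1 had changes of 0.66 and -0.66 (difference -1.32), PIH1 of 0.51 and -0.60 (-1.11) and YNL234W of 0.49 and -0.62 (-1.11). FSH2 had changes of 0.53 and -0.57 (-1.10) and PRM9 of 0.51 and -0.46 (-0.96). Neither the call of FSH2 nor that of PRM9 held in all 12 fits. The call of RGM1 was lost without any library of experiment 1, or without basal replicate 2 or 3 or salt replicate 3 of experiment 2 (highest adjusted p 0.147). That of YNL234W was lost without any library of experiment 1, or without basal replicate 3 or salt replicate 3 of experiment 2 (highest 0.135). That of PIH1 was lost without any library of experiment 1 other than salt replicate 2, or without basal replicate 3 of experiment 2 (highest 0.0851).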

How the results depend on the processing

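The main counts of 96 higher and 66 lower differences changed under several alternatives. DESeq2 gave 244 and 160, all 18 libraries in 1 fit 196 and 145, voom with sample quality weights 498 and 494, a test against 1.5-fold 22 and 8, and the fit without both deviating libraries 392 and 450. Total counts alone gave 102 and 26. Leaving out 1 library gave 50 to 182 higher and 14 to 167 lower calls. A test against 1.5-fold gave 977 higher and 894 lower calls in experiment 1 and 922 and 855 in experiment 2. Under RLE factors, TMM within experiments, GC and length offsets, thinning and 3 other filters the counts were 93 to 137 and 56 to 79. In no setting was a call among the 162 made in the opposite direction. The causes were not tested.

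With the replicate number as a block, 13 genes were called higher and 5 lower, all 18 among the 162. Same-numbered basal and salt libraries deviated with r of -0.46, 0.03 and -0.38 in experiment 1 and -0.60, -0.60 and 0.62 in experiment 2. Several libraries correlated better with another number. Deviations from a group mean cancel within the group, so these correlations are tied to each other. In experiment 2 they include the deviating pair, basal replicate 1 and salt replicate 2 (r = 0.81). Whether the numbers pair the libraries therefore cannot be decided from these values. The main fit treated the libraries as unpaired.

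Some uncalled differences changed sign. ACT1 was 0.0821 with GC and length offsets, 0.0384 with voom and 0.1445 with total counts, and -0.28 to 0.25 with 1 library left out. TDH3 was 0.145, 0.025 and 0.0854, and -0.33 to 0.13. With total counts CTT1 was 0.0745, HOG1 0.0782 and TPS2 0.0585. HOG1 ranged from -0.26 to 0.0567 and STL1 from -1.25 to 0.10 with 1 library left out.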

Other observations

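The largest lower difference of all tested genes was that of the identifier YCL041C, at -5.06, with log2 changes of 4.77 and -0.30. Its counts were 3, 4 and 5 basal and 133, 99 and 136 in salt in experiment 1, and 244, 423 and 542 basal and 349, 407 and 371 in salt in experiment 2. It has no coordinates in the reference used. YCL042W (R64, chromosome III, 50584 to 50943, + strand) had changes of 2.57 and 4.75 and overlaps GLK1 (50838 to 52340, + strand), whose changes were 4.94 and 4.90. PDI1, nearby on the same chromosome (48653 to 50221, - strand), had changes of 0.45 and -0.12. Reads in overlapping genes can be split by the counting, so values of YCL042W and GLK1 are uncertain, and those of YCL041C may be. Without coordinates, whether YCL041C overlaps another gene cannot be told.

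Among called genes with a position, 10 of 95 called higher (10.5%) had an adjacent gene called the same way, against 3.36% of 5539 genes, and 7 of 65 called lower (10.8%) against 2.33%. Pairs included GUT2, IMP21 and RRD1 in a row on chromosome IX, PWP1 and NOP56 on chromosome XII, and THI4 and ENP2 on chromosome VII.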
